A study of Mus musculus with 48 samples.

Results

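The comparison described here is that of germ-free (GF) with conventionally raised (convR) mouse livers at zeitgeber time (ZT) 14, early in the dark phase. It used the 8 libraries collected at that time out of 48 in the series: 4 GF and 4 convR, with 2 females and 2 males in each group. They were taken as all columns of that time in the female and the male count tables, and the table, which coincides with sex, entered the model as a block. Genes whose GF effect was specific to or largest at ZT14 were then chosen against the other 5 times. The series measured total RNA from the liver of C57BL/6j mice of 15-16 weeks, fed ad libitum, every 4 h from ZT2 to ZT22, with 2 libraries for each sex, microbial status and time. Status is the only difference the labels give between the groups, and no genetic change or drug is named for either. The labels do not say that the libraries came from separate animals, so p-values measure the spread between these samples, which may be technical.

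Zeitgeber time counts hours from lights-on. Mice are nocturnal, so ZT14 falls at the start of their main feeding and active period, when the liver shifts between handling stored and newly absorbed nutrients. Gut microbes supply the liver, through the portal vein, with modified bile acids, short-chain fatty acids and other small molecules that act on nuclear receptors such as FXR, PXR and CAR. Those receptors control bile acid, drug, steroid and lipid genes. The hepatic clock and growth hormone, whose pulses differ between the sexes, act on many of the same genes.

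The 8 libraries held 34639788 to 42669401 exon counts each, within the 29769441 to 74892274 of all 48. The 10 most abundant genes took 16.3% to 18.87% of the counts in convR and 18.66% to 21.31% in GF libraries. Lars2 read 21.1 to 131 CPM in convR and 52.8 to 509 CPM in GF libraries at ZT14, and its part in the results was not tested. Outside ZT14 a few libraries stood apart: GF male ZT6 replicate 2 read 51620 CPM of Mir5105 against at most 15970 CPM in any other library, and GF female ZT22 replicate 1 read 78.2 CPM of the pancreatic protease Cela2a. The convR male ZT18 replicate 1 read 62.8 CPM of Cela2a, and no fit without it was run. GF female replicate 2 at ZT2, ZT6 and ZT10 read 184.1, 163.3 and 173.9 CPM of Nnt, against at most 84.68 CPM in every other library, and their Sult1e1 levels were 0.625, 1.69 and 1.68 CPM against 17.65, 48.99 and 65.23 CPM in replicate 1. In the Sult1e1 levels these 3 libraries lay nearer to convR (at most 0.845 CPM) than to their own replicate, against their GF label. Such low Sult1e1 was not particular to them, since GF male ZT6 replicate 2 read 0.877 CPM and GF male ZT22 replicate 1 read 1.096 CPM. None of these libraries enters the fits of the 8 ZT14 libraries. They enter the separate fits of their own times and the comparison with the other times. Through its shared spread they also enter each ZT14 value from the fit of all 48 libraries. The ZT14 calls of that fit were not rerun without them. Genes that mark sex matched the label in every library. Hepatocyte markers such as Alb and Trf were abundant in all 8, and 10 of 10 hepatocyte markers passed the filter on low counts. Levels below are CPM, counts scaled to a common library size corrected by TMM, in the order female 1, female 2, male 1 and male 2, where the digit is the replicate number. They are not divided by gene length, so levels are compared within a gene only. An effect is GF minus convR on the log2 scale, with its standard error (SE), from edgeR's quasi-likelihood test over both sexes unless a sex is named, and a gene was called at an adjusted p under 0.05.

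Of 16236 genes tested at ZT14, 1180 (7.27%) were called: 638 (3.93%) were higher and 542 (3.34%) lower in GF livers. Of the 1180, 1176 had the same direction in both sexes. Before adjustment 3923 of the 16236 had an edgeR p under 0.05, and unadjusted counts for lists below are read against this. Within females 645 genes (3.97%) were called, 2.15% higher and 1.82% lower, and within males 291 (1.79%), 1.03% higher and 0.764% lower. The female count was 59 without convR female 1, 61 without convR female 2, 355 without GF female 1, 1182 without GF female 2, and 323 and 326 without GF male 1 or 2. The male count was 117 and 109 without convR male 1 or 2, 55 and 61 without GF male 1 or 2, and 536 and 540 without GF female 1 or 2. The median effect of all genes was -0.00307 with TMM scaling. Scaling by library size alone put that median at -0.108 and turned the split to 376 higher and 1305 lower, so the balance of higher and lower calls depends on the scaling, and the changes below are relative to the bulk of genes. Over both sexes the count was 418 without convR female 2, 492 without GF male 2, 570 without GF male 1, 623 without convR male 1 and 742 without convR female 1. In counts of genes whose 4 GF and 4 convR levels did not overlap, 883 (5.44%) lay higher and 812 (5%) lower, 10.4% together.

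Amino acid and urea cycle transcripts were higher in GF livers, and the taurine enzyme Csad was lower. Of 17 listed genes of amino acid and urea metabolism, 11 rose and 1 fell in GF livers, where 7.27% of all genes were called. The median effect was 0.64 against -0.00307 for all genes. The count that rose was 10 or 11 with any 1 library left out. The median was 0.78 in females and 0.57 in males. At ZT2, ZT6, ZT10, ZT18 and ZT22 the list median was 0.48, 0.23, 0.31, 0.24 and 0.50. The separate fit of ZT22 called 9 of the 17 higher and 1 lower. The 12 called genes were also the 12 of the list whose GF and convR levels did not overlap. Among all genes 10.4% did not overlap.

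Got1 (chr19:43499752-43524605), the cytosolic aspartate aminotransferase, stood at 211, 145, 129 and 136 CPM in convR and 501, 641, 584 and 596 CPM in GF libraries. Every GF level was above the highest convR level, and the 4 GF livers lay close together. The effect was 1.92 ± 0.15 (SE, edgeR adjusted p = 0.00047). Ass1, argininosuccinate synthase of the urea cycle, was at 2021, 2079.8, 1811 and 2232 CPM in convR and 4003, 4359.9, 3556 and 4222 CPM in GF. Its GF levels were all above the convR range, at 0.99 ± 0.10 (edgeR adjusted p = 0.00154).

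The other urea cycle enzymes followed in smaller steps. Cps1, which makes carbamoyl phosphate and is the cycle's entry step, rose by 0.71 ± 0.10. Asl, argininosuccinate lyase, rose by 0.71 ± 0.10, and Arg1, the arginase that releases urea, by 0.64 ± 0.10. For these the edgeR adjusted p was 0.0056, 0.00518 and 0.00703. Otc, ornithine transcarbamylase, read 505, 450.3, 510.3 and 497 CPM in convR and 496, 496, 489.8 and 469 CPM in GF, overlapping groups with an effect of -0.01 ± 0.07 (edgeR adjusted p = 0.961). Enzymes that release nitrogen from single amino acids made up the rest of the rise. Gls2, liver glutaminase, rose by 0.85 ± 0.12. Hal, histidine ammonia lyase, rose by 0.89 ± 0.15, and Sds, serine dehydratase, by 0.85 ± 0.12. The alanine aminotransferases Gpt and Gpt2 rose by 0.62 ± 0.08 and 0.43 ± 0.09. Each of these had an edgeR adjusted p of 0.0204 or less. The call for Gpt2 was lost without convR female 2, convR male 1 or GF male 1 or 2 (adjusted p up to 0.0757). Tat, Tdo2, Cdo1 and Asns, which act on tyrosine, tryptophan, cysteine and asparagine, did not pass, at 0.41, 0.12, 0.31 and 0.21.

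Csad (chr15:102176999-102204724) went the other way. It encodes cysteine sulfinic acid decarboxylase, which forms the taurine that mouse liver attaches to bile acids. Its levels were 145, 167, 248 and 232 CPM in convR and 19.98, 8.52, 12.8 and 21.3 CPM in GF livers. No GF library came near the lowest convR level, and the order held within each sex. The effect of -3.64 ± 0.26 (edgeR adjusted p = 0.00047) was the lowest among called genes that averaged at least 1 CPM and had the same direction in both sexes. At the other times it was -3.56, -2.81, -2.52, -3.60 and -3.69 (ZT2, ZT6, ZT10, ZT18 and ZT22), and the contrast with their mean was -0.40 ± 0.42 (edgeR adjusted p = 0.746).

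**Figure D1:**
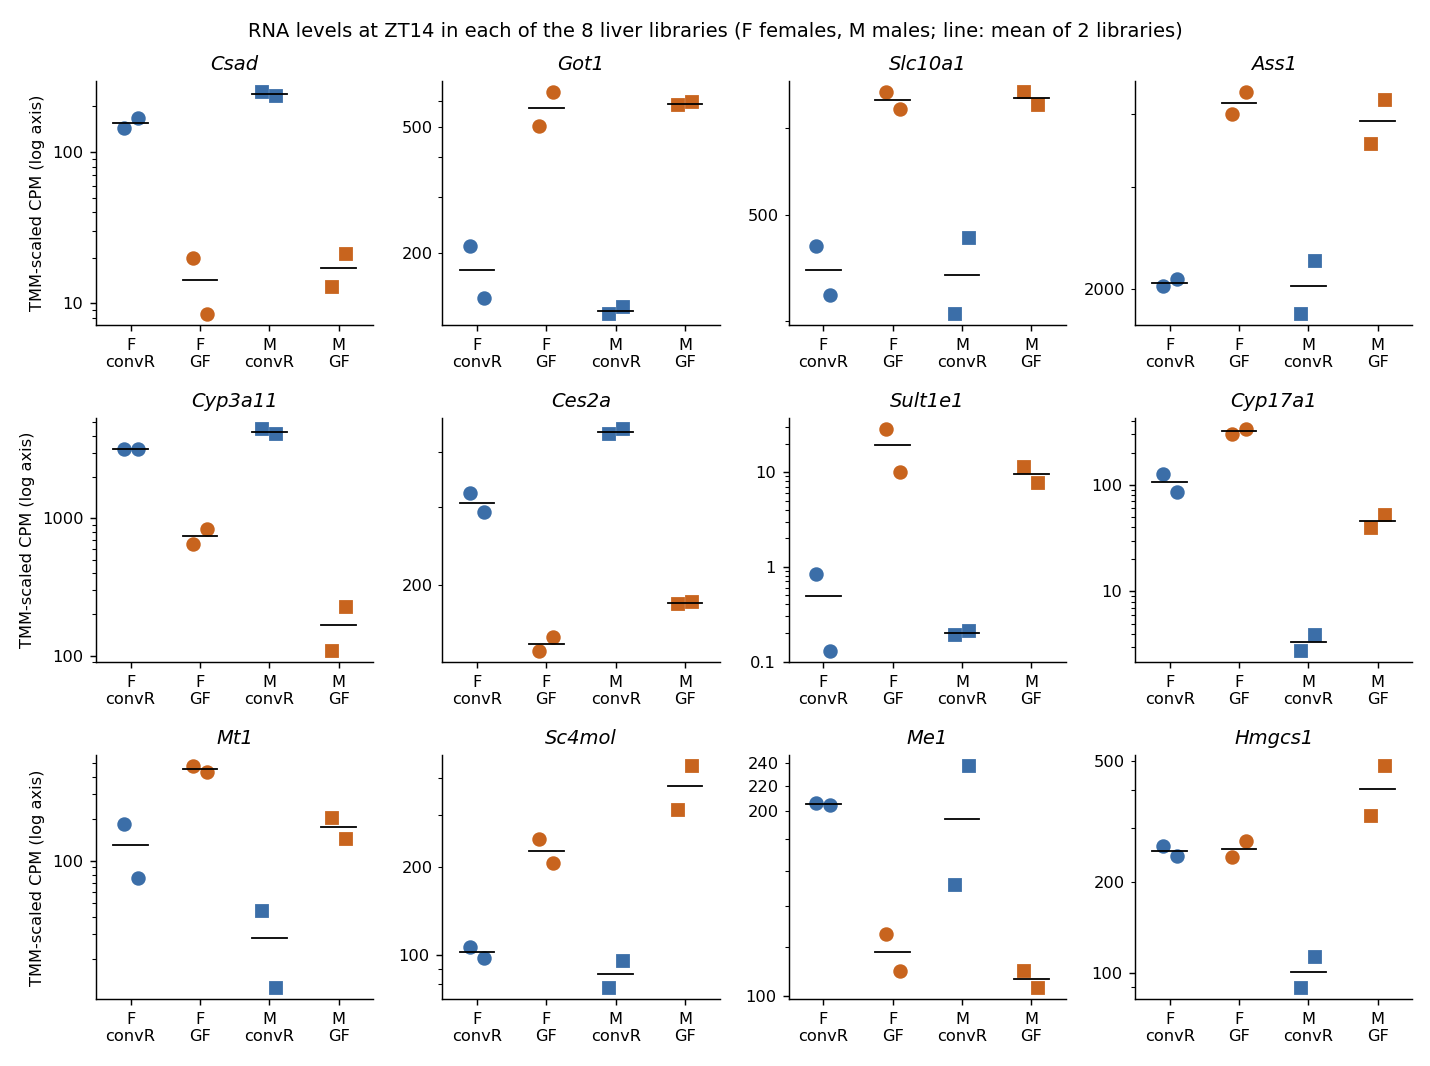
TMM-scaled CPM (log y axes) of 12 genes in the 8 ZT14 libraries, by sex and status. Each point is 1 library, with circles for females and squares for males, blue for convR and orange for GF, and the short line is the mean of 2 libraries. Csad, Cyp3a11 and Ces2a lie lower in GF livers of both sexes, and Got1 and Ass1 higher, while Hmgcs1 is level in females and higher in GF males.

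Among targets of the drug-sensing receptors Cyp3a11, Cyp2b10 and Ces2a were lower, but the list did not move as a whole. Of 28 xenobiotic receptor targets 5 fell and 2 rose, with a median of 0.21, where 7.27% of all genes were called. Effects were positive for 20 and negative for 8. Before adjustment 10 were higher and 6 lower at an edgeR p under 0.05. DESeq2 called 4 higher and 4 lower, and the fit of all 48 libraries 3 higher and 2 lower. Cyp3a11 (chr5:145854426-145879964), the classical PXR target that oxidises drugs and bile acids, measured 3210.0, 3177, 4445 and 4109.9 CPM in convR and 654, 832, 108 and 228 CPM in GF livers. The lowest convR library was above every GF library, and the GF males were lowest. The effect was -3.39 ± 0.52 (edgeR adjusted p = 0.00703), -2.10 ± 0.29 in females and -4.67 ± 0.33 in males. The difference between the sexes was 2.57 ± 0.41 (edgeR adjusted p = 0.111). Cyp3a genes are near-identical copies, and how reads shared between them were counted is not given in the sources used here, so this value and those of other such families below are uncertain.

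Cyp2b10 (chr7:25897620-25926624), the classical CAR target, measured 38.4, 33.5, 3.73 and 3.13 CPM in convR and 3.09, 6.39, 0.791 and 0.702 CPM in GF. Females were far above males in convR, so the groups overlapped across sexes but not within either. Its effect was -2.67 ± 0.24 (edgeR adjusted p = 0.000755). The Cyp2b10 call was lost in the 48-library fit and without the table block (edgeR adjusted p up to 0.215). Ces2a, a carboxylesterase that hydrolyses ester drugs and lipids, was at 323, 292, 439 and 451 CPM in convR and 141, 152, 181 and 183 CPM in GF. The groups were separate and both sexes moved alike, by -1.07 ± 0.10 in females and -1.29 ± 0.10 in males. The joint effect was -1.18 ± 0.08 (edgeR adjusted p = 0.00047). The others that fell were Cyp3a25 at -0.45 ± 0.10 (lost without convR female 2, convR male 1 or GF male 1 or 2, adjusted p up to 0.0757) and Ces2b at -2.82 ± 0.72 (edgeR adjusted p = 0.0442). Ces2b was near 0 in females, and its call was lost without convR female 2, convR male 2, GF female 2 or GF male 1 or 2 (adjusted p up to 0.191). Por, the reductase that passes electrons to all microsomal P450 enzymes, rose by 0.66 ± 0.14 (edgeR adjusted p = 0.0219). Its call was lost without convR female 2, convR male 1 or GF male 1 or 2 (adjusted p up to 0.0705). Abcb1a, a drug efflux pump, was the other that rose, by 0.85 ± 0.22 (edgeR adjusted p = 0.0462), lost without convR female 1 or 2, convR male 1 or 2, GF female 2 or GF male 1 or 2 (adjusted p up to 0.137). The receptors themselves, Nr1i2 (PXR) and Nr1i3 (CAR), had effects of 0.11 ± 0.08 and -0.03 ± 0.22 and did not pass.

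Sult1e1 and Cyp17a1, both enzymes of steroid metabolism, were higher in GF livers, and Sult1e1 had the highest effect of all genes named here. Sult1e1 (chr5:87575969-87591594), the sulfotransferase that inactivates oestrogens, measured 0.845, 0.129, 0.190 and 0.210 CPM in convR and 28.3, 9.93, 11.3 and 7.63 CPM in GF livers. It was barely detected in 3 convR libraries, somewhat higher in convR female 1, and above all of them in every GF liver. The effect was 5.39 ± 0.48 (edgeR adjusted p = 0.000755), with 5.29 ± 0.66 in females and 5.55 ± 0.76 in males. At the other 5 times the effect was 5.53, 6.67, 6.79, 6.81 and 4.91, and at ZT2, ZT6 and ZT10 it includes the library labelled GF female replicate 2, which read 0.625, 1.69 and 1.68 CPM. At ZT6 it also includes GF male replicate 2, which read 0.877 CPM. Cyp17a1 (chr19:46667165-46673172), the steroid 17-alpha-hydroxylase that mouse liver expresses more in females, measured 127, 85.8, 2.76 and 3.95 CPM in convR and 301, 331, 39.1 and 51.7 CPM in GF. GF was higher within each sex, with males of both groups below the females of either. The effect was 2.56 ± 0.40 (edgeR adjusted p = 0.00795), 1.57 ± 0.21 in females and 3.76 ± 0.25 in males, a difference of -2.19 ± 0.31 (edgeR adjusted p = 0.072).

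The lists of genes with sex-biased expression in mouse liver had medians of opposite sign, and their calls are read against 7.27% of all genes. Of 23 male-biased genes 6 fell and 1 rose, with a median of -0.77, -0.88 in males and -0.12 in females. Of 26 female-biased genes 4 rose (Cyp17a1, Sult1e1, Hamp2 and Prom1) and 0 fell in edgeR or DESeq2, with a median of 0.41. At an unadjusted p under 0.05 11 of these were higher and 0 lower. The calls for Hamp2, a copy of the iron hormone hepcidin, and Prom1, a membrane glycoprotein, were lost without convR female 2, convR male 1 or 2, GF female 2 or GF male 1 or 2 and without convR female 1 or 2, convR male 1, GF female 1 or 2 or GF male 1 or 2 (adjusted p up to 0.0933 and 0.111). The male-biased gene that rose was Moxd1, a monooxygenase, at 1.81 ± 0.42 (edgeR adjusted p = 0.0334), lost without convR female 1 or 2, convR male 1 or 2, GF female 2 or GF male 2 (up to 0.169). Cyp4a12a, an arachidonic acid hydroxylase of male liver, was at 0.0264, 0.0771, 118 and 145 CPM in convR and 0.0918, 0, 33.8 and 32.4 CPM in GF. It was near 0 in all females, and both GF males were below both convR males. Its effect was -1.95 ± 0.19 (edgeR adjusted p = 0.00116), and the call was lost in the 48-library fit and without the table block (edgeR adjusted p up to 0.712). Mup14, a major urinary protein gene, measured 0.634, 0.129, 140.4 and 119 CPM in convR and 0.520, 0.154, 29.3 and 27.4 CPM in GF. It too was a male signal with GF males lower, at -1.94 ± 0.34 (edgeR adjusted p = 0.0108), and its call was lost without GF male 1 or 2 (adjusted p up to 0.0752). Ugt2b38, a glucuronosyltransferase, read 0.370, 1.49, 29.8 and 36.01 CPM in convR and 1.01, 0.231, 3.51 and 3.14 CPM in GF. GF males were lower and females were low throughout, at -2.62 ± 0.54 (edgeR adjusted p = 0.0219), a call lost without convR female 2, convR male 1 or 2 or GF male 1 or 2 (adjusted p up to 0.113).

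The number of male-biased genes that fell was 2 and 3 without convR male 1 or 2. It was 1 and 2 without GF male 1 or 2, and 12 without GF female 1. The number of female-biased genes that rose was 2 without GF male 1, GF male 2, convR female 2 or GF female 2. Of 12 genes of growth hormone signalling, which sets these sex biases, 0 were called by edgeR, 0 higher and 1 lower by DESeq2, and 5 at an unadjusted p under 0.05.

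Both liver metallothioneins, small zinc-binding proteins, rose. Mt1 and Mt2 lie side by side, and their promoters are shown because the pair moved together and is the textbook case of metal-responsive transcription. The capitals mark each match, on either strand, to the metal response element core TGCACNC or TGCGCNC. The windows are the 250 bases before the RefSeq start (GRCm38.p6), on the plus strand, at chr8:94178839-94179088 for Mt1 and chr8:94172368-94172617 for Mt2.
Mt1: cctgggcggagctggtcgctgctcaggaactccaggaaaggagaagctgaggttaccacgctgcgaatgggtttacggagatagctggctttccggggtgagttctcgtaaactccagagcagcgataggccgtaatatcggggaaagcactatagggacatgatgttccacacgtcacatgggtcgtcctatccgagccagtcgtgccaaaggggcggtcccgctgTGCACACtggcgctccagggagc
Mt2: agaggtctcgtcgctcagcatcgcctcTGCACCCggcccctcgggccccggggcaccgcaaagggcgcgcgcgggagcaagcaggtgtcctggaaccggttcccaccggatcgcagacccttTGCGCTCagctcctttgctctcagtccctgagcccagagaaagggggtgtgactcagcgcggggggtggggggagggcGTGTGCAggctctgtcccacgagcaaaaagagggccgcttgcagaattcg
In these windows Mt1 had 1 match, 23 bases before the RefSeq start, and Mt2 had 3, at 223, 128 and 50 bases. Bases after that start, or farther before it, were not searched. The counts are therefore of these windows, not of all such elements of either gene. The core is short, and 7032 of 32851 windows (21.4%) held it. A match is a description, not a site or a cause.

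Mt1 measured 185, 75.8, 44.00 and 12.3 CPM in convR and 476, 434, 204 and 145 CPM in GF livers. Levels differed widely within convR, from convR female 1 down to convR male 2, and only convR female 1 reached above the lowest GF library. The effect was 2.21 ± 0.40 (edgeR adjusted p = 0.0129), and with robust dispersion the adjusted p was 0.0687. Mt2 measured 61.3, 14.9, 7.15 and 2.26 CPM in convR and 144, 97.3, 82.4 and 49.00 CPM in GF. The spread had the same shape, with convR female 1 inside the GF range. The effect was 2.66 ± 0.58 (edgeR adjusted p = 0.0261), and the call was lost without convR female 2, convR male 1 or GF male 1 or 2 (adjusted p up to 0.0821). At the other times the Mt1 effect was 0.64, 2.77, 2.44, 1.02 and 0.18 and the Mt2 effect 1.16, 3.35, 3.72, -0.21 and 0.10. Metallothioneins also respond to glucocorticoids. Of 14 listed glucocorticoid targets the 3 that rose were Mt1, Mt2 and Sult1e1, where 7.27% of all genes were called. The median of the list was 0.28. Tsc22d3 and Fkbp5, among the best known of them, had effects of 0.27 ± 0.16 and 0.13 ± 0.21 and did not pass.

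Cholesterol synthesis genes, the targets of the sterol-sensing factor SREBP2, rose as well. Of 23 listed genes 12 rose and 0 fell in edgeR or DESeq2, with a median of 0.78, where 7.27% of all genes were called. No gene of the list was lower at an unadjusted p under 0.05 (0 of 23). Within males 14 rose with a median of 1.27, and within females 1 with a median of 0.38. The share of all genes called was 1.79% within males and 3.97% within females. Of the 23, 1 was called by the test of the difference between sexes. The number that rose over both sexes was 6 without convR male 1, GF male 1 or GF male 2 and 7 without convR female 2. It was 8 in the 48-library fit. At ZT2, ZT6, ZT10, ZT18 and ZT22 the list median was 0.22, -0.61, 0.15, 1.03 and 0.71. The separate fit of ZT22 called 13 of the 23 higher and 0 lower.

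Sc4mol (now Msmo1), which removes methyl groups from sterol rings, measured 106, 98.1, 77.1 and 95.7 CPM in convR and 248, 206, 312 and 438 CPM in GF livers. Every GF library was above every convR library, and GF males were highest. The effect was 1.63 ± 0.20 (edgeR adjusted p = 0.00282), 1.15 ± 0.18 in females and 2.12 ± 0.18 in males. Mvk and Mvd, kinase and decarboxylase of the mevalonate steps, rose by 1.15 ± 0.20 and 1.57 ± 0.27 (edgeR adjusted p = 0.0111 and 0.0108). The Mvd call was lost in the 48-library fit (edgeR adjusted p = 0.066). Insig1, which holds the SREBP complex in the endoplasmic reticulum, rose by 0.87 ± 0.19 (edgeR adjusted p = 0.025), a call lost without convR female 1 or 2, convR male 1 or GF male 2 (adjusted p up to 0.0833).

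Hmgcs1, a synthase early in the mevalonate steps, was the member whose effect differed between the sexes. It measured 263, 243, 89.2 and 113 CPM in convR and 241, 272, 331 and 480.1 CPM in GF livers. GF and convR females were level with each other, and both GF males were above both convR males and all females. The effect was 0.02 ± 0.18 in females and 2.00 ± 0.19 in males (edgeR adjusted p = 0.976 and 0.00168). The difference was -1.99 ± 0.26 (edgeR adjusted p = 0.0478), a call lost without convR female 1 or 2, convR male 1 or 2, GF female 1 or GF male 2 (adjusted p up to 0.155). Its promoter is shown because it was the only one, of the 16 list genes found in the promoter table, with the sterol response core TCACNCCAC on either strand. The core stood in 346 of 32851 windows (1.05%). The match, in capitals, lies 137 bases before the RefSeq start in the window chr13:119690101-119690350 (GRCm38.p6, plus strand).
Hmgcs1: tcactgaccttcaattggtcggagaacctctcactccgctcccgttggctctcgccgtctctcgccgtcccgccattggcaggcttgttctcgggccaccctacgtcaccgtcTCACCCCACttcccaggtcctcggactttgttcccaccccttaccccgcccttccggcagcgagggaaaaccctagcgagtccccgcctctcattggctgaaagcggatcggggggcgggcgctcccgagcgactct
No match in another window says only that these letters are not in it.

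Cell-cycle transcripts were low in all livers and lower in GF. Of 15 proliferation genes 7 fell in edgeR, where 7.27% of all genes were called. None rose in edgeR or DESeq2 (0 of 15), with 0 higher at an unadjusted p under 0.05, and the median was -1.16. Cdk1, the mitotic kinase, measured 1.43, 2.21, 2.09 and 2.13 CPM in convR and 0.459, 0.898, 0.989 and 0.793 CPM in GF. All GF libraries were below all convR libraries, with convR female 1 the lowest of its group, and the effect was -1.31 ± 0.23 (edgeR adjusted p = 0.0125). Top2a, the topoisomerase of dividing cells, measured 2.98, 3.86, 1.73 and 3.92 CPM in convR and 0.765, 1.15, 1.46 and 0.854 CPM in GF. The groups were separate but came close in males, and the effect was -1.54 ± 0.30 (edgeR adjusted p = 0.0172). Mki67, the usual marker of cycling cells, had an effect of -1.12 ± 0.22 (edgeR adjusted p = 0.0169). Both calls were lost without convR female 2 or GF male 2 (adjusted p up to 0.0562 for Top2a and 0.0597 for Mki67). The replication genes Mcm2 and Mcm6 fell by less, at -0.74 and -0.66 (edgeR adjusted p = 0.0461 and 0.0378), calls lost without convR female 1 or 2, convR male 1 or 2, GF female 1 or 2 or GF male 2 for Mcm2 and without convR female 1 or 2, convR male 2, GF female 1 or 2 or GF male 2 for Mcm6 (up to 0.13 and 0.114). Pcna and Tyms had effects of -0.03 and -0.10. The number of the list that fell was 1 without GF male 2 or convR female 2, 3 without convR male 2, convR female 1 or GF female 1, and 4 without GF female 2. It was 2 in the 48-library fit, and 4 within females and 0 within males. At ZT2, ZT6, ZT10, ZT18 and ZT22 the list median was -0.73, -0.94, -1.01, -0.99 and -1.05. The separate fit of ZT22 called 10 of the 15 lower. In bulk tissue, fewer cells of a type and less RNA per cell cannot be told apart.

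Kupffer cell and monocyte markers were among the lower transcripts, where 7.27% of all genes were called. Of 12 Kupffer cell markers 2 fell, Clec4f to an effect of -0.42 ± 0.09 and Folr2 to -0.43 ± 0.11. Their edgeR adjusted p was 0.0243 and 0.0395, and the calls were lost without convR female 2, convR male 1, GF female 2 or GF male 1 or 2 for Clec4f and without convR female 1 or 2, convR male 1 or 2, GF female 2 or GF male 1 or 2 for Folr2 (adjusted p up to 0.0859 and 0.129). All 12 Kupffer markers had negative effects. Before adjustment 6 were lower and 0 higher at an edgeR p under 0.05, against 3923 of all 16236 genes in either direction. With the replicate block, and in the fit of all 48 libraries, 0 of the 12 were called. The summed level of that list was 430.4 to 722 CPM in convR and 318 to 632 CPM in GF, and no marker was at 0. Ccr2, the chemokine receptor of recruited monocytes, measured 2.83, 3.26, 2.35 and 2.16 CPM in convR and 1.25, 1.77, 1.36 and 1.07 CPM in GF. The groups did not overlap, and the effect was -0.95 ± 0.17 (edgeR adjusted p = 0.0117). The effects of the 5 tested neutrophil and monocyte markers were all negative, 3 of them at an unadjusted p under 0.05. Ccr2 was the only call among these 5 tested neutrophil and monocyte markers, whose summed level was 53.1 to 87.4 CPM in convR and 38.5 to 107 CPM in GF. The part of these cells in the lower proliferation genes was not tested.

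The interferon list gave 1 higher and 2 lower calls among 28, with a median of -0.26, where 7.27% of all genes were called. In the fit of all 48 libraries it gave 0 higher and 1 lower. Irf7, an interferon-induced regulator, measured 28.7, 33.9, 29.4 and 25.3 CPM in convR and 20.8, 19.4, 12.5 and 19.3 CPM in GF. All GF libraries were below all convR libraries, at -0.71 ± 0.13 (edgeR adjusted p = 0.014), and the call was lost without convR female 2 (adjusted p 0.0542). Iigp1, an interferon-induced GTPase, fell by 0.50 ± 0.11 (edgeR adjusted p = 0.0253, lost without convR female 2, convR male 1 or GF male 2, up to 0.0889). Usp18, which removes ISG15 from proteins, rose by 0.64 ± 0.13 (edgeR adjusted p = 0.022, lost without convR male 2 or GF male 1, up to 0.0664). Of the 28 effects 25 were negative, and at an unadjusted p under 0.05 10 were lower and 1 was higher.

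Further genes with the largest effects belonged to none of these groups. Lrtm1, a leucine-rich repeat membrane protein, measured 7.42, 5.30, 4.32 and 7.89 CPM in convR and 33.5, 25.4, 17.9 and 35.2 CPM in GF livers. Each GF library was above each convR library, at 2.16 ± 0.25 (edgeR adjusted p = 0.00202). Gpx6, a glutathione peroxidase, measured 1.14, 0.360, 0.760 and 0.447 CPM in convR and 2.91, 3.67, 3.44 and 6.10 CPM in GF. The groups were separate at these low levels, at 2.55 ± 0.35 (edgeR adjusted p = 0.00479). Med12l (chr3:59005825-59318682), a subunit related to Med12 of the Mediator complex, measured 7.26, 6.48, 4.99 and 6.34 CPM in convR and 2.11, 1.97, 1.38 and 1.13 CPM in GF. It was lower in every GF liver, with an effect of -1.94 ± 0.15 (edgeR adjusted p = 0.00047), -1.75 ± 0.19 in females and -2.16 ± 0.20 in males. The difference between the sexes was 0.41 ± 0.28 (edgeR adjusted p = 0.723). Cib3, of a calcium-binding protein family, measured 1.35, 1.03, 3.28 and 8.55 CPM in convR and 0.275, 0.256, 1.16 and 0.549 CPM in GF, overlapping only across the sexes, at -2.55 ± 0.38 (edgeR adjusted p = 0.00636).

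Tff3, a secreted trefoil peptide, was a male signal, with 0.106, 0, 1.73 and 3.42 CPM in convR and 0.336, 0.256, 25.7 and 12.4 CPM in GF. GF males were above convR males and females were near 0, at 2.86 ± 0.38 (edgeR adjusted p = 0.00459). The Tff3 call was lost in the 48-library fit and without the table block (edgeR adjusted p up to 0.409). Hapln1, which links hyaluronan to proteoglycans, had an effect of 2.45 ± 0.50 (edgeR adjusted p = 0.0219), lost without convR female 2, convR male 1 or GF male 1 or 2 (adjusted p up to 0.0643). Rec8, a meiotic cohesin subunit, fell by 1.77 ± 0.35 (edgeR adjusted p = 0.0188), lost without convR female 2 or GF male 1 or 2 (adjusted p up to 0.0686). Ctrc and Cela2a, digestive proteases of the pancreas, overlap in the annotation and carried the same counts, 0.317, 0.643, 0.546 and 0.658 CPM in convR and 4.47, 1.51, 3.07 and 1.59 CPM in GF. They cannot be told apart here, and both read 2.28 ± 0.40 (edgeR adjusted p = 0.0116) with separate groups. Their calls were lost in the 48-library fit (edgeR adjusted p = 0.196). Of 10 pancreatic acinar markers only 2 passed the low-count filter, with a summed level of 3.96 to 11.1 CPM in convR and 6.80 to 13.8 CPM in GF. The part of pancreatic tissue in this pair was not tested.

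**Figure D2:**
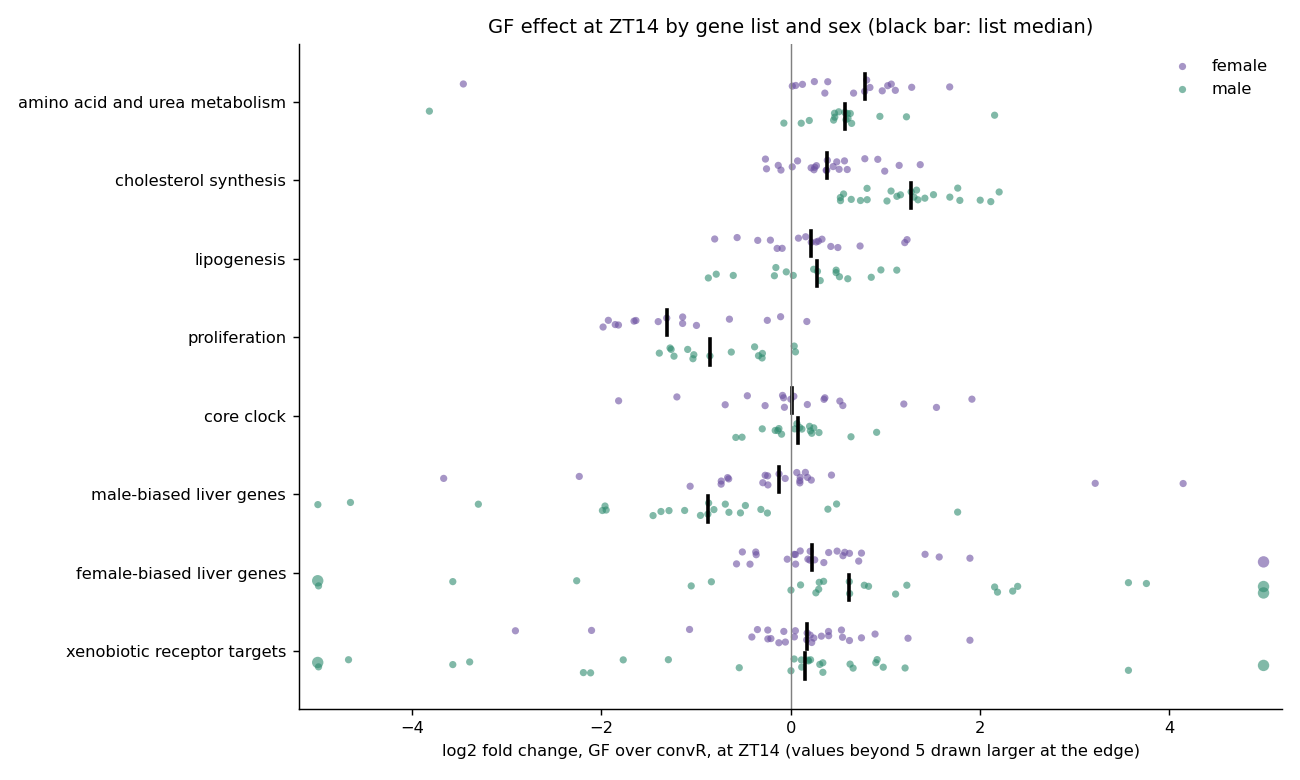
Effect at ZT14 (x axis, log2, GF over convR) of each tested gene in 8 gene lists (y axis), with females in purple and males in green. Each point is 1 gene, black bars are the list medians, and values beyond 5 are drawn larger at the edge. Amino acid genes have medians of 0.78 in females and 0.57 in males, proliferation genes -1.31 and -0.85, and clock genes lie around 0.

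Calls in the other metabolic lists are read against 7.27% of all genes. In bile acid synthesis and transport 2 of 19 rose and 1 fell. Slc10a1, the main bile salt importer, rose from 468, 422, 406 and 476 CPM in convR to 647, 625, 647 and 629.9 CPM in GF. All GF livers were above all convR livers, at 0.52 ± 0.08 (edgeR adjusted p = 0.00703), and the call was lost in the 48-library fit (edgeR adjusted p = 0.0649). Klb, the co-receptor through which gut FGF15 lowers bile acid synthesis, rose by 0.38 ± 0.10 (edgeR adjusted p = 0.0489), lost without convR female 1 or 2, convR male 1 or 2, GF female 2 or GF male 1 or 2 (adjusted p up to 0.117). Cyp7b1, of the alternative bile acid pathway and male-biased, fell by 0.70 ± 0.17 (edgeR adjusted p = 0.0371), lost without convR female 1, convR male 1 or 2, GF female 2 or GF male 1 or 2 (adjusted p up to 0.116).

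In lipogenesis 3 of 17 rose and 1 fell, with a median of 0.28. Gpam and Dgat2, which build triglycerides, rose by 0.33 ± 0.09 and 0.32 ± 0.07, and the desaturase Fads1 by 0.59 ± 0.14. Their edgeR adjusted p was 0.0455, 0.0257 and 0.0364. These calls were lost without convR female 1 or 2, convR male 1 or 2, GF female 1 or 2 or GF male 2 for Gpam, without convR female 1 or 2, convR male 1 or 2 or GF male 1 or 2 for Dgat2 and without convR female 2, convR male 1 or 2, GF female 2 or GF male 1 or 2 for Fads1 (adjusted p up to 0.133, 0.0971 and 0.11). Me1, malic enzyme, a source of NADPH for fatty acid synthesis, measured 206, 205, 152 and 237 CPM in convR and 126, 109.9, 109.7 and 103 CPM in GF. It was lower in every GF library, at -0.84 ± 0.13 (edgeR adjusted p = 0.00678), and the call was lost in the 48-library fit (edgeR adjusted p = 0.0591). Among the 25 PPARa and fatty acid oxidation genes the 2 calls were both lower. Acaa1b, a peroxisomal thiolase, measured 811, 1069, 975 and 874 CPM in convR and 373, 525, 453 and 565 CPM in GF, separate groups with an effect of -0.96 ± 0.14 (edgeR adjusted p = 0.00594). Fabp1, the liver fatty acid carrier, had -0.49 ± 0.11 (edgeR adjusted p = 0.0306), lost without convR female 1 or 2, convR male 1, GF female 1 or 2 or GF male 2 (adjusted p up to 0.0982). Of 17 glucose and insulin response genes Gys2, liver glycogen synthase, rose by 0.90 ± 0.18 and Gckr, the glucokinase regulator, by 0.42 ± 0.08. Their edgeR adjusted p was 0.0177 and 0.0133, and the Gys2 call was lost without convR female 2 or GF male 2 (adjusted p up to 0.0607).

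Core clock genes gave no call over both sexes, by edgeR or DESeq2, among 18 tested. At an unadjusted p under 0.05 there were 4 of 18, against 3923 of all 16236 genes, and the median was 0.08. Without convR male 2 there were 2 calls, both higher, and without the low-count filter 5 higher and 1 lower. Within females 5 were called by edgeR, 2 higher and 3 lower, where 3.97% of all genes were called. These calls within females were not followed with a library left out. Arntl, which encodes the activator BMAL1, measured 5.76, 2.24, 5.75 and 6.68 CPM in convR and 1.07, 1.18, 9.87 and 13.5 CPM in GF livers. Both GF females were below both convR females, and both GF males above both convR males. The effect was -1.82 ± 0.41 in females (edgeR adjusted p = 0.0448) and 0.91 ± 0.33 in males (edgeR adjusted p = 0.226). Its partner Clock read -0.69 ± 0.13 in females and 0.22 ± 0.13 in males, and the repressor Nfil3 -1.20 ± 0.24 and 0.07 ± 0.24. The repressors Bhlhe41 and Ciart (Gm129 in the tables) rose in females, by 1.92 ± 0.34 and 1.54 ± 0.24. In males they had -0.51 ± 0.31 and 0.10 ± 0.23. Dbp, an output of the clock, had 1.20 ± 0.30 in females and -0.30 ± 0.30 in males. For none of these 6 did the sex difference pass, with edgeR adjusted p of 0.191 for Arntl, 0.193 for Clock and 0.334 for Nfil3. It was 0.183 for Bhlhe41, 0.273 for Ciart and 0.368 for Dbp. Sampling times within ZT14 are not given, and their part in these values was not tested.

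The difference of the effect between females and males was called for 9 of 16236 genes (0.0554%), 2 more positive (0.0123%) and 7 more negative (0.0431%) in females. None of the 1180 genes called over both sexes was among them (0 of 1180 in edgeR). There were 1381 genes at an unadjusted p under 0.05 for this difference, and 126 called by DESeq2. The count was 3 without convR male 1 or 2, 4 and 5 without GF male 1 or 2, 15 without GF female 1 and 73 without GF female 2. In the 48-library fit, of the 7 genes named for this difference, the call held for Gstp1 (edgeR adjusted p = 0.0312) and was lost for Hmgcs1, Cyp2b9, Igfbp1, Cyp4a14, Nt5e and Arsg (0.114 to 0.906).

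Cyp2b9 (chr7:26173411-26210661), a female-biased P450, measured 368, 412, 0.285 and 0 CPM in convR and 358, 450.1, 25.02 and 19.1 CPM in GF livers. It was at or near 0 in convR males and detected in both GF males, still far below females of either status. The effect was 0.05 ± 0.27 in females and 7.18 ± 0.47 in males, and the male value depends on the prior count because 1 convR male had 0. The difference was -7.13 ± 0.56 (edgeR adjusted p = 0.00503) and was called with each ZT14 library left out, but not in the 48-library fit (adjusted p 0.163). Igfbp1, a secreted IGF-binding protein repressed by insulin, measured 34.2, 30.2, 12.6 and 9.68 CPM in convR and 27.6, 37.2, 141 and 84.1 CPM in GF. GF males were highest and convR males lowest, with the females of both groups between them. The effect was 0.01 ± 0.24 in females and 3.33 ± 0.26 in males (difference edgeR adjusted p = 0.0172, lost without convR female 1 or convR male 1 or 2, up to 0.0895). Gstp1, a male-biased glutathione transferase, measured 77.9, 93.1, 966 and 998 CPM in convR and 112, 82.4, 258 and 250.1 CPM in GF. The convR males were highest, GF males were lower, and females were level, with 0.18 ± 0.15 in females and -1.95 ± 0.16 in males. The difference was 2.13 ± 0.22 (edgeR adjusted p = 0.0172, lost without convR female 1, convR male 1 or 2 or GF male 1 or 2, up to 0.117).

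Cyp4a14, a fatty acid hydroxylase, measured 719.7, 956, 101 and 95.3 CPM in convR and 386, 457, 164 and 201 CPM in GF. It was lower in GF females and higher in GF males, with -0.99 ± 0.17 and 0.89 ± 0.17. Nt5e, the ectoenzyme that makes adenosine, measured 66.5, 59.1, 6.04 and 5.55 CPM in convR and 31.6, 39.5, 9.001 and 9.31 CPM in GF. Its GF females were lower than convR females and its GF males higher than convR males, -0.82 ± 0.13 and 0.66 ± 0.14. Arsg, a lysosomal sulfatase, measured 5.28, 4.83, 9.79 and 10.8 CPM in convR and 13.3, 12.4, 8.98 and 8.45 CPM in GF. GF females rose above convR females, with 1.34 ± 0.13, against -0.24 ± 0.12 in males. The edgeR adjusted p of the difference was 0.0439, 0.045 and 0.019. These calls were lost without convR female 2, convR male 1 or 2, GF female 1 or GF male 1 or 2 for Cyp4a14 (up to 0.202). They were lost without convR female 1 or 2, convR male 1 or 2 or GF male 1 or 2 for Nt5e and Arsg (up to 0.262 and 0.155).

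With TMM scaling ZT14 gave the largest number of calls of the 6 times when each was fitted alone. It had 1180 against 96 at ZT2 (0.572%), 3 at ZT6 (0.018%), 83 at ZT10 (0.502%), 517 at ZT18 (3.14%) and 1002 at ZT22 (6.03%). With library size alone ZT14 had 1681, against 1924 at ZT18 and 1924 at ZT22, so the rank depends on the scaling. DESeq2 gave 1660 at ZT14 and 1606 at ZT22. In the fit of all 48 libraries, where the times share one estimate of spread, the counts were 1024 at ZT14 (5.73%), 494 at ZT2 (2.76%), 1141 at ZT6 (6.39%), 441 at ZT10 (2.47%), 1355 at ZT18 (7.58%) and 1172 at ZT22 (6.56%). ZT6, ZT18 and ZT22 then had more calls than ZT14. The spread between replicates was smallest at ZT14, with a common biological coefficient of variation of 0.141 against 0.156 to 0.246 elsewhere. The separate fits of ZT2, ZT6 and ZT10 each held the GF female replicate 2 library of high Nnt. The ZT6 fit also held GF male replicate 2, the library of high Mir5105. Those fits were not rerun without these libraries, whose part in the call counts and the spread was not tested. The largest absolute effect of the 6 times fell at ZT14 for 2889 of 16236 genes (17.8%), and for 705 of the 1180 called (59.7%). The second share is raised by the choice of genes called at ZT14.

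**Figure D3:**
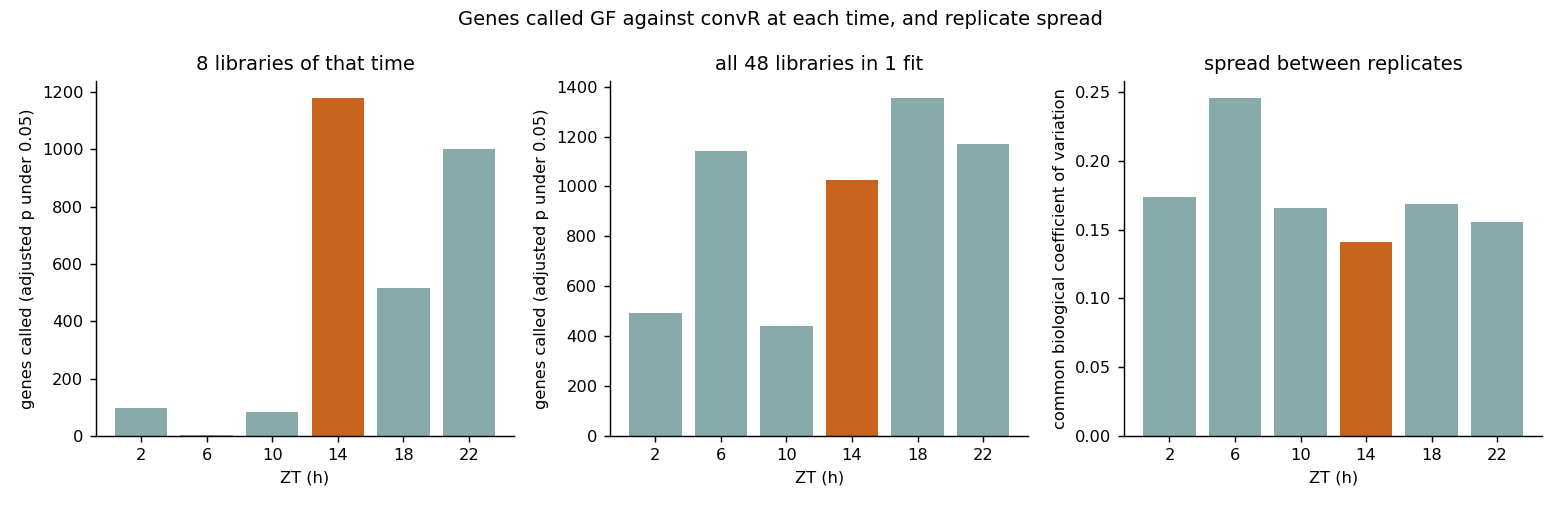
Genes called (GF against convR, edgeR adjusted p under 0.05) at each ZT in separate 8-library fits and in the 48-library fit, and the common biological coefficient of variation of each 8-library fit. ZT14, in orange, has the most calls in the separate fits, 1180, but 1024 against up to 1355 in the joint fit, and the smallest spread, 0.141. With library size alone, not drawn, ZT18 and ZT22 had more calls than ZT14 in the separate fits. The fits of ZT2, ZT6 and ZT10 include the GF female replicate 2 libraries of high Nnt and were not rerun without them.

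Few genes had an effect at ZT14 that differed from the mean of the other 5 times. The contrast was called for 34 of 17867 genes (0.19%), 21 more positive (0.118%) and 13 more negative (0.0728%), with 2261 at an unadjusted p under 0.05 and 196 by DESeq2. The same contrast built on another time gave 4 at ZT2 (0.0224%), 630 at ZT6 (3.53%), 9 at ZT10 (0.0504%), 187 at ZT18 (1.05%) and 46 at ZT22 (0.257%). Of the 34, 24 were also called at ZT14 and had there their largest effect of the 6 times (0.148% of 16236), 15 higher in GF (0.0924%) and 9 lower (0.0554%). Without GF female ZT22 replicate 1 and GF male ZT6 replicate 2 these counts were 55 and 41. Without GF female replicate 2 at ZT2, ZT6 and ZT10 they were 32 and 21, and 18 of the 24 were among the 21. The contrast calls of Mpv17l, Inhbc, Pex26 and Cyp7a1 were lost in that fit (edgeR adjusted p = 0.0585 each). DESeq2 gave 115 such genes and shared all 24. The number was 0 without convR female 2, convR male 1, convR male 2 or GF male 1, 1 without GF female 1, 2 without GF male 2 and 12 without convR female 1. At an unadjusted p under 0.05 the contrast then held 1704, 1779, 2092 and 1869 genes for the 4 fits with none. Set against ZT10 and ZT18 alone, edgeR called 0 genes, with 1440 at an unadjusted p under 0.05. The sign of the contrast was kept for 24 of 24 in every alternative. The 24 were chosen on this contrast and the alternatives reuse most of the same libraries, so the kept sign is no support.

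Gpcpd1, Slc43a1, Etnk2 and Azin1 were among the 15 that were higher. Gpcpd1 (chr2:132529082-132587729), a phosphodiesterase that releases glycerophosphate from glycerophosphocholine, measured 164, 99.6, 255 and 142 CPM in convR and 418, 529, 596 and 341 CPM in GF livers at ZT14. Each GF library was above each convR library. The ZT14 effect was 1.54 ± 0.30, against 0.57, 0.24, 0.23, -0.30 and -0.59 at the other times, and the contrast was 1.51 ± 0.32 (edgeR adjusted p = 0.0433). Etnk2, the liver ethanolamine kinase that starts phosphatidylethanolamine synthesis, measured 291, 283, 307 and 311 CPM in convR and 563, 519.9, 499.9 and 516 CPM in GF. The 2 groups were tight and far apart, with a contrast of 0.62 ± 0.13 (edgeR adjusted p = 0.0295). Slc43a1, a transporter of large neutral amino acids, measured 9.59, 6.40, 7.10 and 5.94 CPM in convR and 24.6, 24.3, 21.1 and 15.96 CPM in GF. All GF livers were higher, at 1.56 ± 0.25 against 0.22, 0.14, 0.49, -0.19 and 0.38 at the other times, a contrast of 1.35 ± 0.27 (edgeR adjusted p = 0.0292).

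Azin1, the antizyme inhibitor that sustains polyamine synthesis, measured 104, 112, 117 and 105 CPM in convR and 222, 194, 164 and 136 CPM in GF. The convR livers were nearly level with each other and the GF livers all above them, the GF females most. Its effect was within 0.21 of 0 at each other time (0.01, -0.21, 0.09, 0.02 and -0.11), and the contrast was 0.73 ± 0.13 (edgeR adjusted p = 0.0219). Mpv17l, of a peroxisomal and mitochondrial membrane protein family, had a contrast of 0.996 ± 0.21, and Pex26, which anchors the peroxisomal import machinery, 0.71 ± 0.15. Mrps16, a mitochondrial ribosomal protein, had 0.58 ± 0.11, and Tefm, the mitochondrial transcription elongation factor, 0.66 ± 0.12. Nle1, which acts in ribosome assembly, had 0.92 ± 0.20 and Ankrd49, an ankyrin repeat protein, 0.55 ± 0.11. Their edgeR adjusted p ranged from 0.0219 to 0.0433. The 5 others that were higher, outside the rule for named genes and listed here after their values were seen, were Narf, Alkbh3, Utp15, B3gnt1 and 1700019G17Rik. Of 15 listed ribosome biogenesis genes 0 were called at ZT14 by edgeR, 0 higher and 0 lower by DESeq2, and 0 at an unadjusted p under 0.05.

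**Figure D4:**
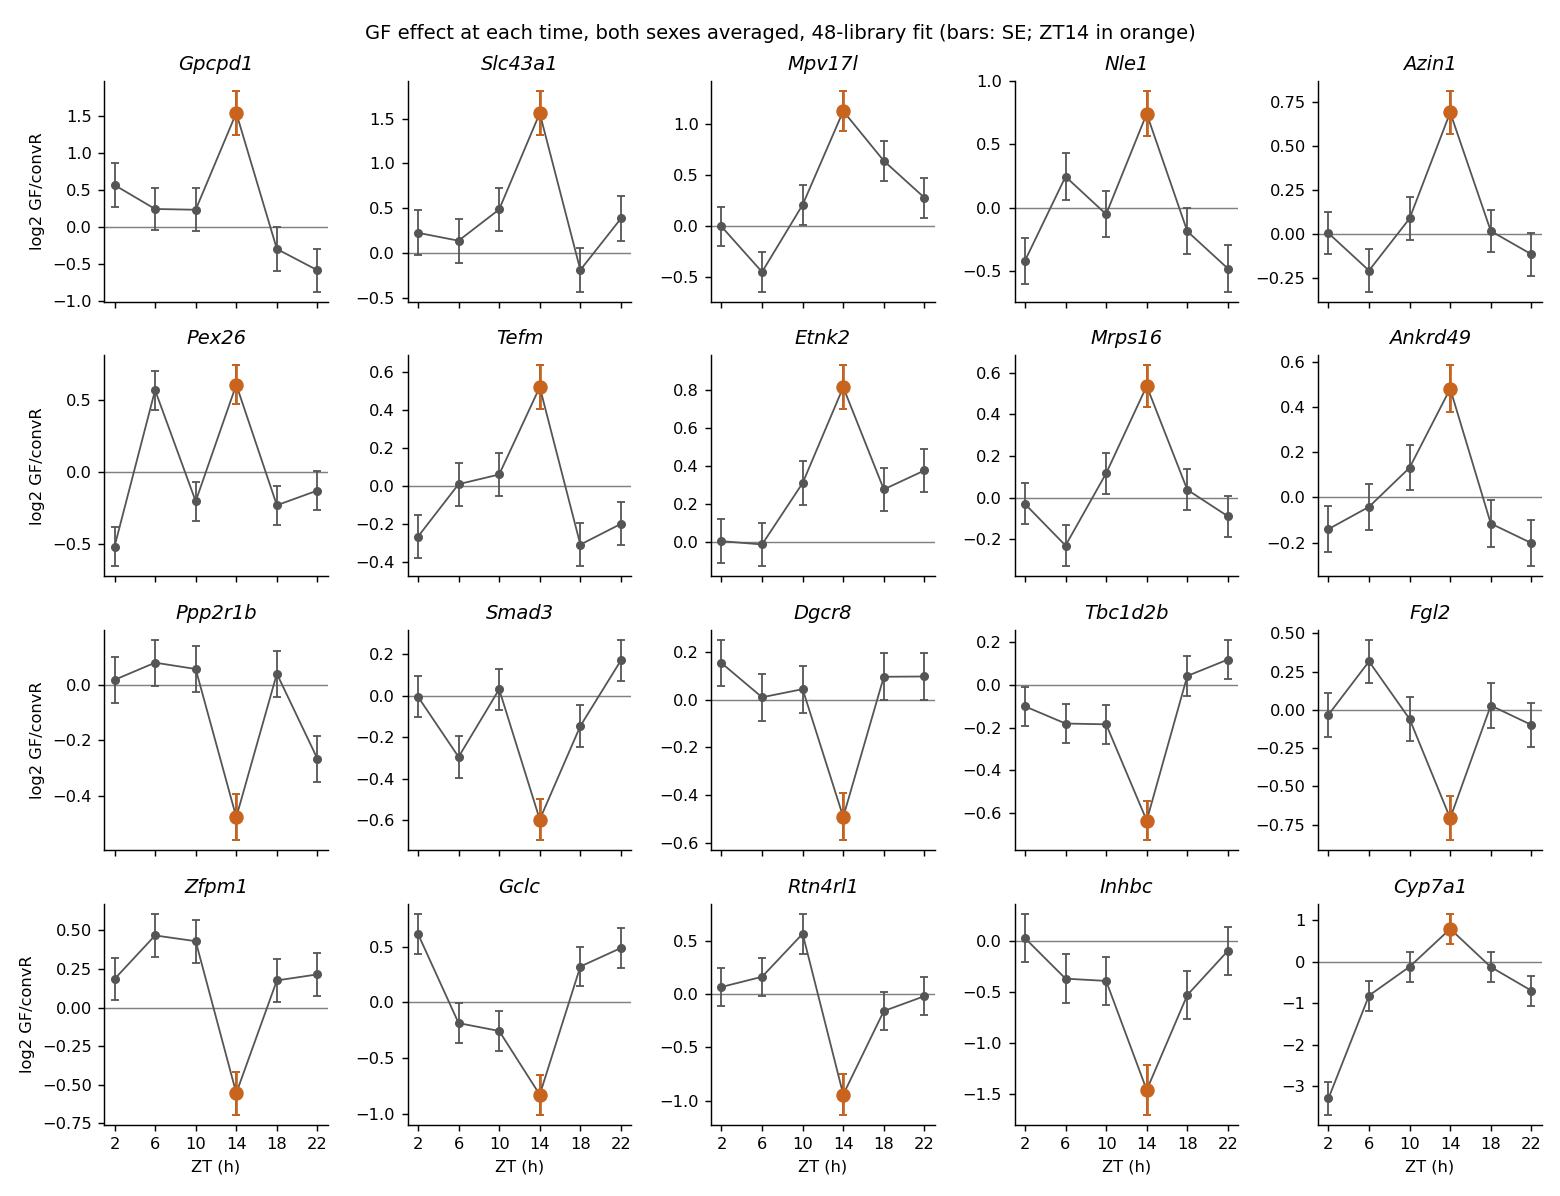
Effect (y axis, log2, GF over convR, 48-library fit) of the 19 named genes specific to or largest at ZT14, and of Cyp7a1, against ZT in hours; error bars are SE and ZT14 is in orange. The ZT14 value is the farthest from 0 in each panel but that of Cyp7a1, and for Pex26 it is close to that at ZT6. The genes were chosen for this pattern.

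Gclc, Inhbc, Smad3 and Zfpm1 were among the 9 that were lower. Gclc (chr9:77754535-77794485), the catalytic subunit of the enzyme that limits glutathione synthesis, measured 253, 288, 273 and 219.6 CPM in convR and 124, 148, 147 and 164 CPM in GF livers. No GF library reached the convR range. The effect was -0.83 ± 0.18 at ZT14 and 0.61, -0.19, -0.26, 0.32 and 0.49 at the other times, positive at ZT2, ZT18 and ZT22, and the contrast was -1.03 ± 0.20 (edgeR adjusted p = 0.0219). Inhbc, the hepatic activin and inhibin subunit beta C, measured 68.4, 57.6, 46.6 and 50.8 CPM in convR and 18.4, 14.6, 24.1 and 24.9 CPM in GF. It was lower in each GF liver and lowest in the females, with a contrast of -1.19 ± 0.26 (edgeR adjusted p = 0.0494). Smad3, which carries TGF-beta and activin signals to the nucleus, measured 14.4, 19.9, 18.3 and 19.4 CPM in convR and 9.88, 13.3, 12.1 and 12.3 CPM in GF. The groups did not overlap, and the contrast was -0.55 ± 0.11 (edgeR adjusted p = 0.0295).

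Rtn4rl1, a Nogo receptor relative, measured 7.90, 8.23, 9.79 and 9.39 CPM in convR and 3.76, 3.98, 4.95 and 5.86 CPM in GF. The groups were separate, with a contrast of -1.07 ± 0.21. Zfpm1, a cofactor of GATA factors, measured 38.3, 45.9, 37.5 and 37.7 CPM in convR and 24.4, 27.7, 26.4 and 29.99 CPM in GF. It was lower in GF at ZT14 with an effect of -0.55 ± 0.14, while the effects at the other 5 times were all positive (0.18, 0.47, 0.43, 0.18 and 0.22). Its contrast was -0.85 ± 0.15. Dgcr8, the partner of Drosha in microRNA processing, was level across the convR livers at 16.95, 16.8, 16.6 and 17.2 CPM, and 10.5, 10.5, 13.9 and 13.5 CPM in GF. Its contrast was -0.57 ± 0.11. Fgl2, an immune-regulating fibrinogen-like protein, had -0.74 ± 0.16 and Tbc1d2b, a Rab GTPase regulator, -0.58 ± 0.10. Ppp2r1b, a scaffold of protein phosphatase PP2A, had -0.46 ± 0.09. The edgeR adjusted p of these 6 contrasts lay between 0.0219 and 0.0433.

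**Figure D5:**
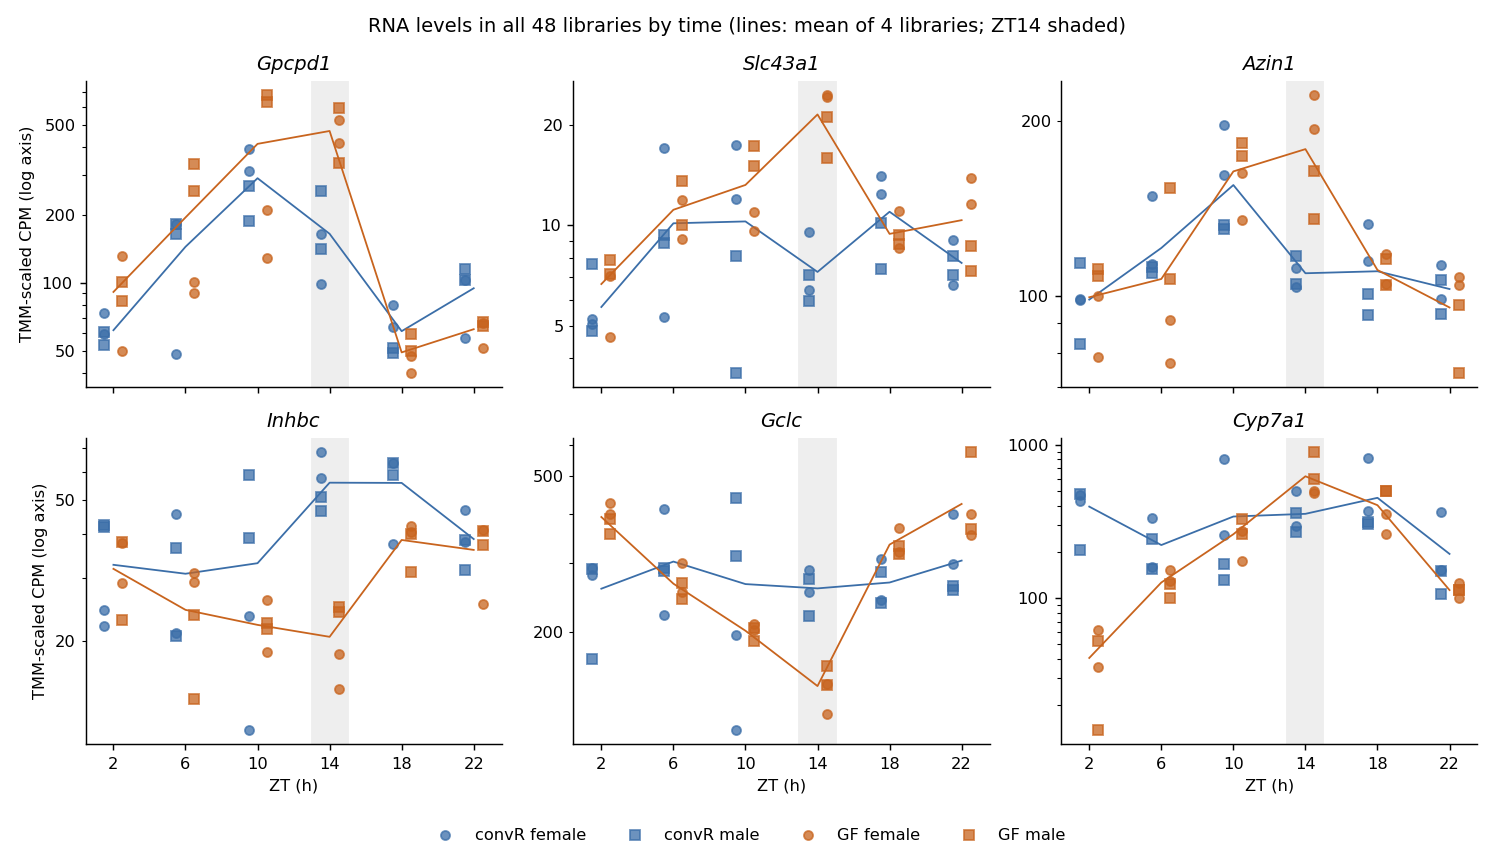
TMM-scaled CPM (log axes) of 6 genes in all 48 liver libraries against ZT in hours; points are libraries, lines join means of 4 libraries, blue convR and orange GF, and ZT14 is shaded. Gpcpd1, Slc43a1 and Azin1 fall between ZT10 and ZT14 in convR means but not in GF means, and Gclc reaches its lowest GF mean at ZT14.

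Cyp7a1 (chr4:6265612-6275633), which carries out the first, controlling step from cholesterol to bile acids, was called by the time contrast but not at ZT14 itself. It measured 495, 293, 359 and 267 CPM in convR and 502, 487, 596 and 901 CPM in GF livers at ZT14. The groups overlapped through convR female 1, and the effect was 0.79 ± 0.23 (edgeR adjusted p = 0.0731). Its effects at the other times were -3.29, -0.81, -0.12, -0.13 and -0.69, so ZT14 was the only time with a positive value. The contrast was 1.80 ± 0.40 (edgeR adjusted p = 0.0494) and was lost without each of the 8 ZT14 libraries in turn (adjusted p up to 0.213). It rested most on ZT2, where the effect was -3.29 ± 0.39.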

How the data were processed

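The 48 mouse liver libraries were stranded total RNA libraries made after ribosomal depletion, per the labels' protocols. The authors deposited exon counts per gene, 1 table for each sex with 38087 genes in each. STAR 2.4.0i and the mm10 build are named in the submitters' processing notes. How reads were counted, on which annotation, and how strand and shared reads were handled were not given in the sources used here. The exon length column was not used.

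Columns were grouped by status, sex, time and replicate as their names give them. Counts were tested with edgeR 4.0.16 (R 4.3.3): TMM scaling, filterByExpr with a minimum count of 10 and total of 15, quasi-likelihood F test, Benjamini-Hochberg adjustment over all genes tested. The ZT14 effect used 8 libraries with table and status as terms. Effects within each sex and their difference used 1 mean for each sex and status, and the time contrast used 1 mean for each of 24 cells over 48 libraries. A gene was taken as specific to or largest at ZT14 where this contrast and the ZT14 effect were both called and its absolute effect was the largest of the 6 times.

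Named genes were the 10 highest and 10 lowest called effects with a mean log2 CPM of 0 or more and 1 direction in both sexes. For the sex difference 5 were named each way, and for the time contrast 10 each way, with the same minimum, beside members of the gene lists. Predicted gene models, pseudogenes and small RNAs were counted but not named, and a few other genes are not reported here. The genes, lists and tests were chosen with earlier results of these data known. Gene positions are those of GENCODE M21, in which 36308 of the gene identifiers were found, and promoters are RefSeq's on GRCm38.p6. Alternatives were library size or DESeq2 scaling, DESeq2 1.42.0, other filters, no table block, a replicate block, robust dispersion, other sets of times and each ZT14 library left out. The fitting steps were tested on simulated data. The sample titles give replicate numbers and do not state a pairing, so none was modelled in the main fits. The correlation of same-numbered deviations ran from -0.0969 to 0.204 over 12 times and sexes and exceeded 0.1 in 4. Such values cannot decide whether libraries were paired.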

Additional observations from a re-analysis of the deposited data

Results flagged for a closer look

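Among 106 genes and 218 groups of 4 libraries, 8 groups held 1 library whose gap to its nearest neighbour, as a share of the group's range, exceeded Dixon's critical value. Chance gives such a gap in about 1 in 20 groups. The gap was 0.886 of the range for Sult1e1 in convR, where female 1 read 0.845 CPM against 0.129 to 0.210 CPM, and 0.866 for Hapln1 in convR, where male 2 read 1.11 CPM against 0.103 to 0.238 CPM. It was 0.840 for Mrps16 in GF (female 1 high), 0.904 for Zfpm1 in convR (female 2 high) and 0.916 for Fdft1 in GF (male 2 high, 164.8 CPM against 115.6 to 119.8 CPM). It was 0.838 for Gys2 in convR (male 1 high), 0.862 for Gckr in GF (female 2 high) and 0.847 for Cdk1 in convR (female 1 low, 1.43 CPM against 2.09 to 2.21 CPM).

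The GF effect differed between the sexes by edgeR's test of the difference for 7 named genes. Females minus males, the difference was 2.13 for Gstp1, 1.59 for Arsg, -1.48 for Nt5e, -1.89 for Cyp4a14, -1.99 for Hmgcs1, -3.32 for Igfbp1 and -7.13 for Cyp2b9. The effect at ZT14 differed from the mean of the other 5 times for 20 named genes. For the genes more positive at ZT14 the difference was 1.80 for Cyp7a1, 1.51 for Gpcpd1, 1.35 for Slc43a1, 0.996 for Mpv17l, 0.920 for Nle1, 0.731 for Azin1, 0.705 for Pex26, 0.661 for Tefm, 0.624 for Etnk2, 0.576 for Mrps16 and 0.554 for Ankrd49. For those more negative it was -0.463 for Ppp2r1b, -0.547 for Smad3, -0.571 for Dgcr8, -0.576 for Tbc1d2b, -0.740 for Fgl2, -0.849 for Zfpm1, -1.03 for Gclc, -1.07 for Rtn4rl1 and -1.19 for Inhbc. The genes were chosen on this contrast, so these values describe them.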

How the results depend on the processing

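The 1180 calls at ZT14 became 2476 without a low-count filter and 197 without the table block, and 418 to 1121 with 1 library left out. Calls within females (645) were 1872 without a filter, 382 in the 48-library fit and 59 to 1182 with 1 library out. Calls within males (291) were 632 by DESeq2, 1349 without a filter, 150 in the 48-library fit and 55 to 540 with 1 library out. The 9 genes with a sex difference were 126 by DESeq2, 500 without a filter, 3 in the 48-library fit and 3 to 73 with 1 library out. The other times, in the order library size only, no filter and DESeq2, gave 237, 1018 and 687 at ZT2 (96), 15, 869 and 262 at ZT6 (3), 150, 629 and 725 at ZT10 (83), 1924, 792 and 1310 at ZT18 (517), and 1924, 1949 and 1606 at ZT22 (1002). The 34 genes of the time contrast were 13 with library size only, 671 without a filter, 196 by DESeq2, 0 against ZT10 and ZT18 alone, 18 without ZT2, 103 without ZT10, 14 without ZT22, 55 without the GF female ZT22 replicate 1 and GF male ZT6 replicate 2 libraries, and 0 to 34 with 1 ZT14 library out. The 24 specific genes were 9, 327, 115 and 0 in the first 4 of these, 55 without ZT10, 11 without ZT22, 41 without those 2 libraries and 0 to 18 with 1 ZT14 library out. The causes were not tested. Losses given with single genes are those with 1 ZT14 library left out unless another fit is named, and losses in the other alternatives are not all listed. Single named genes kept their direction in all alternatives run (1283 values on the same side of the threshold, 568 calls lost, 0 reversed). These genes were called in the main fit, and the alternatives reuse most of its libraries, so kept directions are no separate support.

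With the replicate block the calls were 843 at ZT14, 560 in females, 354 in males and 21 for the sex difference. They were 11, 5, 5, 79 and 759 at ZT2, ZT6, ZT10, ZT18 and ZT22, 26 for the time contrast and 16 specific genes. Whether a replicate number stands for a pairing is not stated, so these values describe the number only. At ZT14 the correlation of same-numbered deviations was 0.122 in females and 0.0302 in males.

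The same contrast built on the other times, chosen after seeing the data, is given with the time contrast. With 2 libraries for each sex and status, and totals from 34639788 counts, genes under 1 CPM rest on few counts and an effect within a sex on 4 libraries.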

Other observations

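The genes called in the heat shock and unfolded protein lists were lower in GF livers, where 7.27% of all genes were called. Of 14 heat shock and chaperone genes 2 fell. Hspb1, a small heat shock protein, measured 12.8, 18.1, 9.53 and 8.34 CPM in convR and 4.89, 4.31, 6.33 and 5.52 CPM in GF livers (female 1, female 2, male 1 and male 2). All GF libraries were below all convR libraries, at -1.17 ± 0.23 (edgeR adjusted p = 0.0172). Bag3, its co-chaperone, had -0.46 ± 0.10 (edgeR adjusted p = 0.0298, lost without convR female 1, convR male 1 or 2, GF female 2 or GF male 1 or 2, up to 0.0891). Of 17 genes of the unfolded protein response Ddit3, the stress factor CHOP, fell by 0.65 ± 0.14 and Dnajb9, an endoplasmic reticulum co-chaperone, by 0.70 ± 0.17. Their edgeR adjusted p was 0.0275 and 0.0404, lost without convR female 1 or 2, convR male 2 or GF male 1 or 2 for Ddit3 and without convR female 1, convR male 1 or 2, GF female 2 or GF male 1 or 2 for Dnajb9 (up to 0.0799 and 0.115). The median of that list was -0.33.

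Calls in the next 4 lists are also read against 7.27% of all genes. Among 12 tested immediate early genes Btg2, an antiproliferative gene, measured 13.3, 10.8, 8.51 and 11.2 CPM in convR and 19.8, 26.1, 15.5 and 15.6 CPM in GF. The groups were separate, at 0.80 ± 0.13 (edgeR adjusted p = 0.00876). Atf3, a stress-induced factor, rose by 0.79 ± 0.19 and Junb, an AP-1 subunit, fell by 0.47 ± 0.11 (edgeR adjusted p = 0.0387 and 0.0372). The calls were lost for Atf3 without convR female 1 or 2, convR male 1, GF female 1 or 2 or GF male 2 and for Junb without convR female 1 or 2, convR male 1 or 2 or GF male 1 or 2 (up to 0.131 and 0.101). Of 18 acute phase genes Apcs, serum amyloid P, was the only call, at 0.53 ± 0.10 (edgeR adjusted p = 0.0157, lost without convR female 2 or GF male 2, up to 0.06). Of 10 hepatocyte markers 3 were higher, among them Alb by 0.47 ± 0.12 and Trf by 0.35 ± 0.09. The edgeR adjusted p of Alb and Trf was 0.0392 and 0.0442, lost without convR female 2, convR male 1 or 2, GF female 1 or 2 or GF male 1 or 2 for Alb and without convR female 1 or 2, convR male 1 or 2, GF female 1 or GF male 1 or 2 for Trf (up to 0.0996 and 0.117). Fabp4, the adipocyte fatty acid carrier, was the only call of 4 tested adipocyte markers, at 0.51 ± 0.12 (edgeR adjusted p = 0.0346, lost without convR female 1 or 2, convR male 1 or 2, GF female 1 or 2 or GF male 1, up to 0.106). The summed adipocyte list was 5.09 to 10.4 CPM in convR and 6.62 to 12.1 CPM in GF.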
